A study of Mus musculus with 13 samples.

Results

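The effect of an Srsf2 mutation in mouse hematopoietic stem and progenitor cells (HSPCs) that lack Setd2 was read from 5 bulk RNA-seq libraries of the 13 samples in the series. They are the 3 libraries labelled Setd2 knockout and Srsf2 mutated, called double mutant here, and the 2 libraries labelled Setd2 knockout. The members were chosen by genotype label alone. Both groups are labelled HSPCs of bone marrow and both carry the Setd2 knockout, so they differ by label only in Srsf2. The series holds 10 bulk libraries in 4 groups; the others are 2 wild type and 3 Srsf2 mutated libraries with normal Setd2, used here to ask whether the Srsf2 difference was alike with Setd2 present. The labels give Mx1-Cre, the Setd2 fl/fl and Srsf2 P95H/+ alleles, a sort for Lin- c-Kit+ cells, pIpC induction, a 4 week wait and a transplant model for the 3 single-cell samples, which were not used here. For the bulk libraries the sort, the Srsf2 allele, the transplant, the time, and the age and sex of the mice are not given in the sources used here. Mx1-Cre is a recombinase switched on by interferon signaling, and it acts in blood cells and in other tissues too. Nothing says that the replicates came from separate mice, so the p-values set each difference against a spread between libraries that may be technical. That spread was estimated from all 10 bulk libraries.

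Setd2 is the enzyme that places trimethylation on lysine 36 of histone H3 along transcribed genes, a mark read by splicing and DNA repair factors. Srsf2 is a splicing factor of the SR family, which binds exon sequences and helps the spliceosome include them. Mutations of SRSF2 recur in myelodysplastic syndrome, a clonal disorder in which stem and progenitor cells make blood cells poorly, and in related leukemias. Neutrophils mature from progenitors through a stage that makes primary granules, with Mpo and Elane, to later stages that make secondary and tertiary granules, with Mmp8, Mmp9 and Retnlg.

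Sequencing gave 42367739 and 43507677 counts for Setd2 knockout, against 32117387, 47574119 and 50445434 for double mutant. The biological coefficient of variation between libraries of a group, as edgeR estimates it, was 0.0563 in Setd2 knockout and 0.0782 in double mutant. It was larger in the groups with Setd2 present, at 0.104 in wild type and 0.192 in Srsf2 mutated. On the first principal component, which held 52.8% of the variance of the 10 libraries, the double mutant libraries lay between 89.2 and 89.6 and both Setd2 knockout libraries below -66. Within each group, pairs of libraries differed by more than counting error. Levels are CPM, counts set on a common library total with TMM factors (a trimmed mean of ratios between libraries), and fold changes come from the edgeR quasi-likelihood fit with their standard error (SE). A gene was called changed at a Benjamini-Hochberg adjusted p under 0.05 over all 19289 tested genes.

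Setd2 itself (ENSMUSG00000044791, chromosome 9, 110532597 to 110618633 on GRCm38) stood at 230.8 and 212.6 CPM in the Setd2 knockout libraries and at 131.3, 129.6 and 130.2 in the double mutant libraries. The groups did not overlap, and Setd2 was lower in the double mutant (log2 fold change -0.77 ± 0.109 SE, adjusted p = 1.98e-05, edgeR). Wild type libraries averaged 151.7 CPM, under the libraries labelled Setd2 knockout, and a count over the whole gene cannot show the loss of a few exons. Srsf2 (ENSMUSG00000034120, chromosome 11, 116849901 to 116853094) had levels of 321.8 and 324.9 CPM in Setd2 knockout and at 224.4, 219.0 and 226.9 in double mutant libraries (-0.53 ± 0.0728, adjusted p = 1.31e-05, edgeR). Since a changed base leaves a gene's count as it is, neither genotype could be checked from these levels.

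The sex-linked genes differed between the groups. Ddx3y, on the Y chromosome, had 0 counts in both Setd2 knockout libraries, which allows up to 0.0321 CPM over the group, and stood at 119.5, 123.0 and 128.2 CPM in the double mutant libraries. Against that limit it was at least 3854-fold higher. The other Y-linked genes, Eif2s3y, Kdm5d and Uty, had 0 counts in Setd2 knockout as well. Xist, the RNA that silences an X chromosome in female cells, stood at 0.562 and 0.635 CPM in Setd2 knockout, at 6.81, 7.94 and 7.46 in double mutant, and at a mean of 485.5 in wild type. Ddx3y also had 0 counts in wild type and a mean of 111.2 CPM in Srsf2 mutated libraries. Sex-linked state and Srsf2 genotype therefore cannot be told apart in either Srsf2 comparison. Genes that define HSPCs were present in both groups, with Kit at 444.5 and 163.2 CPM and Cd34 at 228 and 158.1 in Setd2 knockout and double mutant, while Procr, an endothelial and stem cell receptor, was low in both at 1.6 and 0.582.

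In the double mutant libraries, genes of mature neutrophils, eosinophils, red cells and B cells, genes induced by NF-kB and interferon, and immediate early genes were higher than in the Setd2 knockout libraries. Genes of stem cells, primary granules and DNA replication were lower. Of the 19289 genes 10000 were called (51.8%), 5015 higher (26%) and 4985 lower (25.8%). At a change of at least 2-fold the split was 2915 higher and 1166 lower, and at 8-fold it was 995 and 94. The double mutant libraries lay all above both Setd2 knockout libraries for 36.3% of tested genes and all below for 37.2%. Among all called genes, 5002 of the 5015 higher and 4982 of the 4985 lower did not overlap between the groups. The rule in the methods named 284 genes, many of them because they were called, and 227 of the 284 were called. Of these 227 only Cacna2d1, a calcium channel gene, overlapped, so the lack of overlap does not set the named genes apart. Gene lists are given by the members that passed the filter on low counts, such as 43 of 45 erythroid, 15 of 20 endothelial and stromal and 52 of 69 histone genes. In bulk samples, fewer cells of a type and less RNA per cell cannot be told apart.

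**Figure D1:**
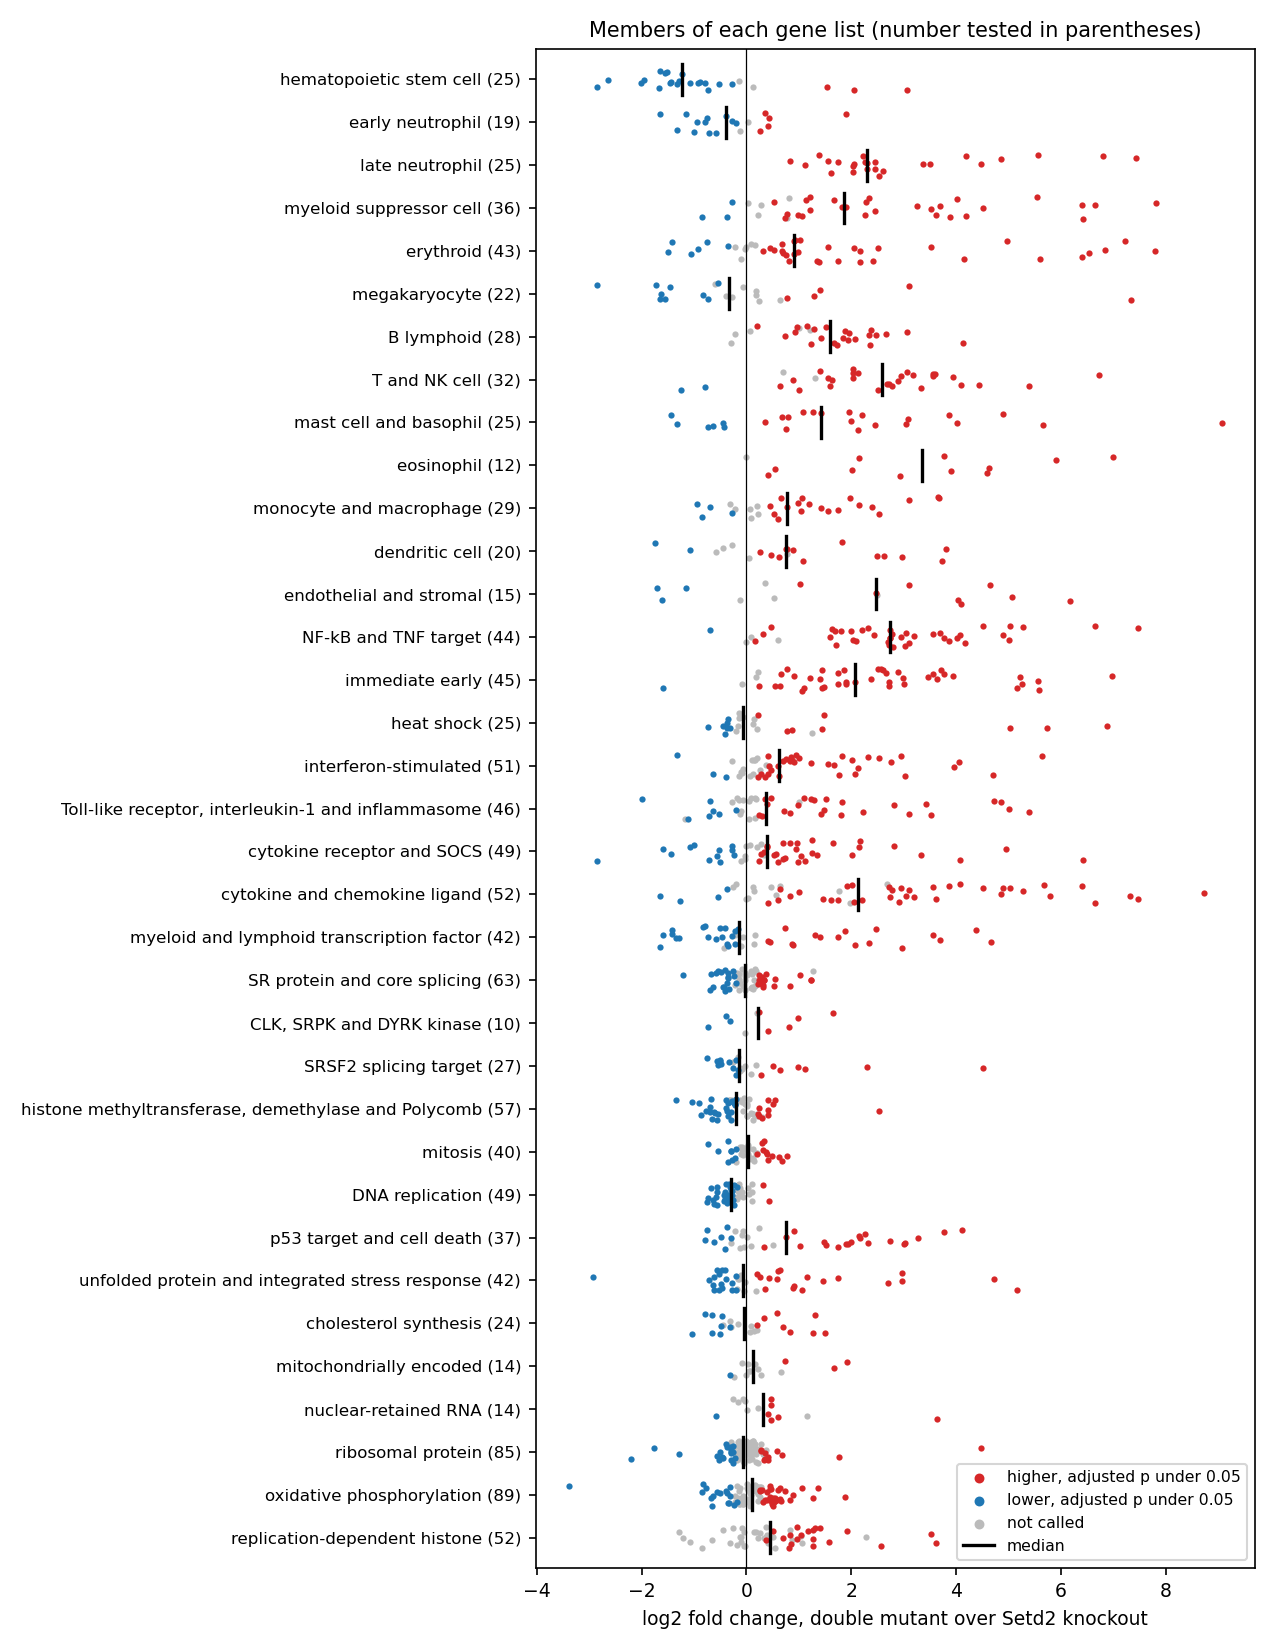
Log2 fold change of double mutant over Setd2 knockout (x axis) for each tested member of each gene list (rows, with the number tested); red points are called higher, blue called lower, grey not called, and the black bar is the list's median. The 25 late neutrophil genes all lie to the right of 0, and the median of the stem cell list is -1.24.

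Stem cell genes were mostly lower. Of 25 tested, 20 fell and 3 rose, with a median log2 fold change of -1.24 against 0.01 over all tested genes. Kit (ENSMUSG00000005672, chromosome 5, 75574916 to 75656722), the stem cell factor receptor by which progenitors are sorted, stood at 454.8 and 434.1 CPM in Setd2 knockout and at 167.1, 163.4 and 159 in double mutant libraries. Every double mutant library lay far under both others, a 2.72-fold fall (-1.45 ± 0.0725, adjusted p = 1.02e-10, edgeR). Hlf, a transcription factor of stem cells, stood at 26.4 and 27.4 CPM and then at 7.69, 6.23 and 7.01, 3.86-fold lower. Against the majority, Txnip, an inhibitor of thioredoxin, rose 2.91-fold, and Ly6a, which encodes Sca-1, rose from 3.14 ± 0.228 (SD, n = 2) to 26.2 ± 0.665 CPM (n = 3). Ly6a is also induced by interferon in blood cells. Myc, a driver of growth listed among the immediate early genes, stood at 402.8 and 408.3 CPM in Setd2 knockout and at 130.4, 145.1 and 130 in double mutant libraries, 3-fold lower.

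**Figure D2:**
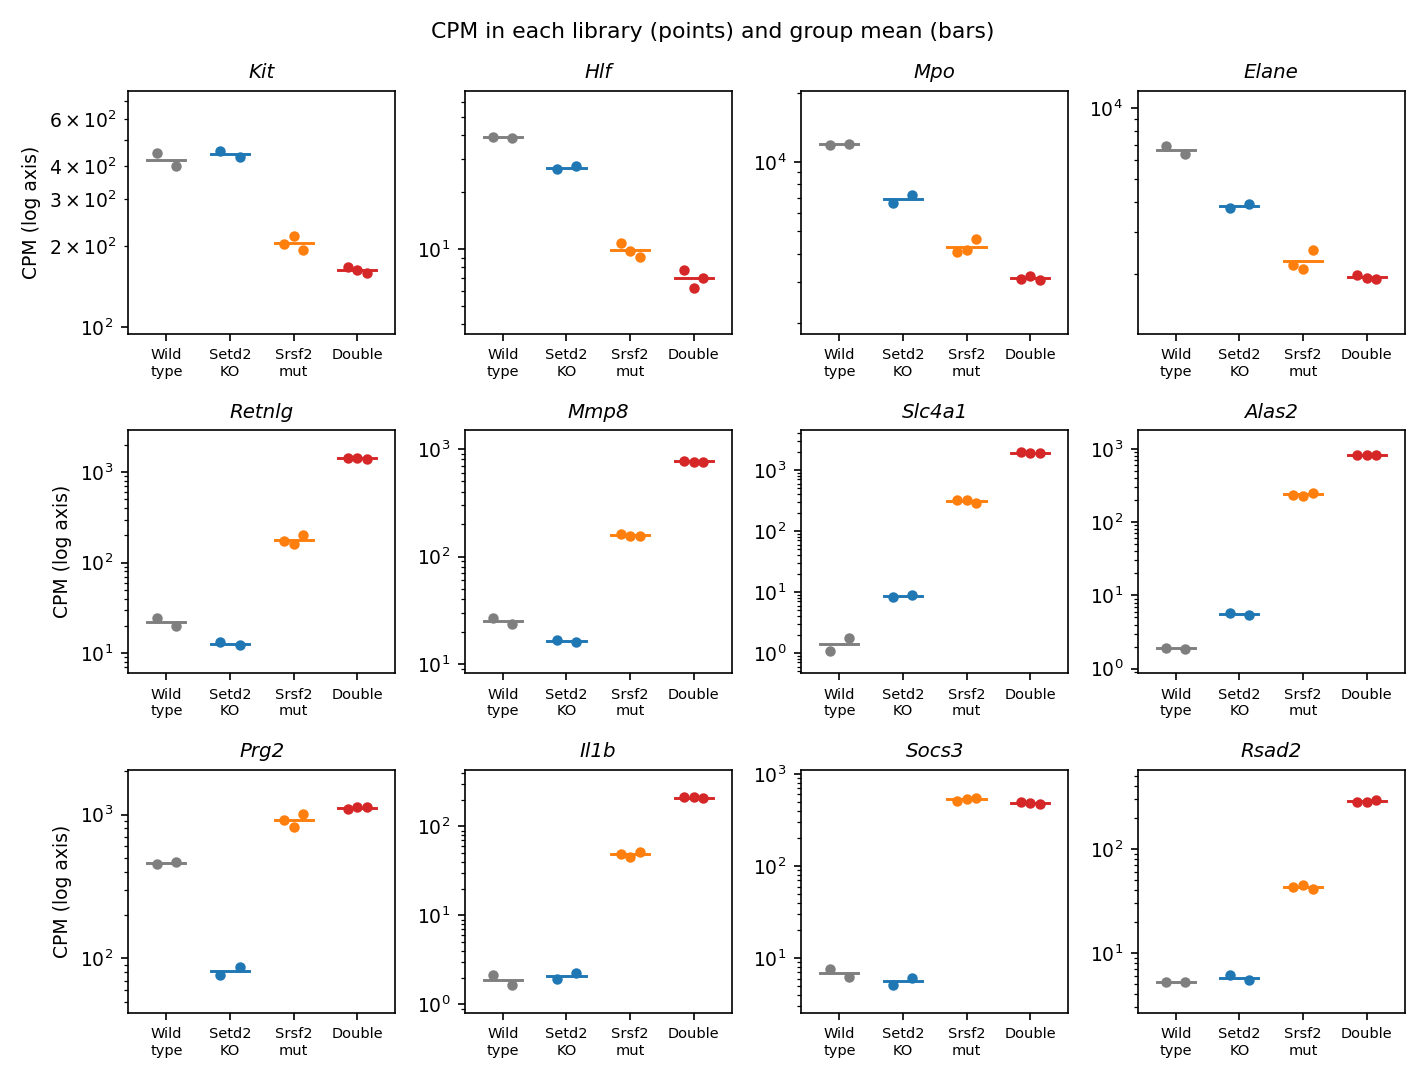
CPM on a log axis in each library (points) with the group mean (bar) for 12 genes in wild type, Setd2 knockout, Srsf2 mutated and double mutant libraries. Kit, Hlf, Mpo and Elane are lower in the double mutant than in the Setd2 knockout libraries, and the other 8 genes are higher with no overlap.

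Early neutrophil genes went down as a group, with exceptions. Of 19 tested, 12 fell and 5 rose (median -0.39), and those that rose numbered 3 without any 1 of the 5 libraries. In the main fit the share that rose was near the 26% of all tested genes, and the share that fell above the 25.8%. Mpo (ENSMUSG00000009350, chromosome 11, 87793581 to 87804413), the peroxidase of primary granules, stood at 6633 and 7220 CPM in Setd2 knockout and at 3114, 3193 and 3075 in double mutant libraries. It was 2.21-fold lower (-1.15 ± 0.0664, adjusted p = 6.18e-10, edgeR). Elane, the neutrophil elastase, stood at 3773 and 3930 CPM and then at 1971, 1917 and 1903. Gfi1, a repressor that neutrophil precursors need, fell from 134.6 ± 3.86 to 42.9 ± 2.22 CPM, and Prss57, a granule protease, fell 2.50-fold. Mgst1, a glutathione transferase, rose 3.74-fold against the majority. Fcnb, a ficolin of the same stage, averaged 212.7 and 216.3 CPM (adjusted p = 0.871). Summed over the list, the members held 19370 to 20733 CPM in Setd2 knockout and 12155 to 12292 in double mutant libraries.

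All 25 late neutrophil genes tested rose, with a median of 2.30. Retnlg (ENSMUSG00000022651, chromosome 16, 48872621 to 48874496), a resistin-like protein of mature neutrophils, stood at 13.4 and 12.2 CPM in Setd2 knockout and at 1418, 1440 and 1401 in double mutant libraries. It was 111-fold higher (6.79 ± 0.137, adjusted p = 2.09e-15, edgeR). Mmp8, a collagenase of secondary granules, stood at 16.7 and 16 CPM and then at 772, 761.8 and 763.2, a rise of 46.9-fold. Mmp9, a gelatinase of tertiary granules, rose 22.2-fold, Cxcr2, the receptor through which neutrophils leave the marrow, rose 18.3-fold, and Fpr1, a receptor for bacterial peptides, rose 29-fold. The members' summed level went from 9230 and 9855 CPM to between 46296 and 47112. S100a8 and S100a9 together took 0.266% and 0.302% of counts in Setd2 knockout and 1.27% to 1.31% in double mutant libraries.

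Genes tied to myeloid-derived suppressor cells, immature neutrophils and monocytes that restrain T cells and are named in the title of the series, rose in 28 of 36 cases and fell in 3 (median 1.86). Many are neutrophil or inflammation genes as well. Trem1, a receptor that amplifies inflammation, stood at 14.9 and 15.1 CPM in Setd2 knockout and at 228.1, 215.2 and 221.8 in double mutant libraries. Clec4d, a lectin receptor, rose 46.5-fold and Osm, the cytokine oncostatin M, 12.3-fold. Arg2, an arginine-consuming enzyme, went from 0.0529 to 12.7 CPM on average, with no read in the first Setd2 knockout library. Ccr2, the chemokine receptor of monocytes, fell against the majority from 417.9 and 383.9 CPM to 221.6, 220 and 224.5. Ly6c2 averaged 656.5 and 760 CPM and was not called (adjusted p = 0.068), and Vegfa averaged 51.0 and 52.1 (adjusted p = 0.774).

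Red cell genes rose over a wide range. Of 43 tested erythroid genes, 31 rose and 6 fell (median 0.92), and their summed level went from 5838 and 5873 CPM to between 28689 and 30111. Slc4a1 (ENSMUSG00000006574, chromosome 11, 102348824 to 102366203), the anion exchanger of the red cell membrane, stood at 8.40 and 9.06 CPM in Setd2 knockout and at 1948, 1899 and 1924 in double mutant libraries. It was 220-fold higher (7.78 ± 0.134, adjusted p = 4.14e-16, edgeR). Alas2, which starts heme synthesis in red cell precursors, stood at 5.75 and 5.35 CPM and then at 832.3, 828.2 and 811.6. Hbb-bs and Hba-a1, adult globin genes, rose 92.4-fold and 84.9-fold, and globin transcripts took 0.0221% and 0.0215% of counts in Setd2 knockout and 1.6% to 1.76% in double mutant libraries. Globin genes have near-identical copies between which reads can be split, so their single values are uncertain. Other genes of the lineage fell or were not called. Gfi1b, a repressor of erythroid and platelet precursors, fell 2.67-fold and Sphk1, a sphingosine kinase, 2.81-fold. The water channel gene Aqp1 averaged 425.3 and 420 CPM (adjusted p = 0.843), Ermap 292.3 and 311.5 (0.429), the erythropoietin receptor gene Epor 68.0 and 66.5 (0.824), and Tal1, a transcription factor of the lineage, 150.8 and 168 (0.0736).

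A pair of short stretches is shown because GATA1 and KLF1 are the factors best known for erythroid promoters and their letters lie before these genes. The letters searched were AGATAA for GATA, found in 9.99% of the 250 base windows before 32851 RefSeq starts, and CCACACCC for KLF1, found in 3.2%, each on both strands. Capitals mark the match, which in Alas2 is on the opposite strand. It lies 86 bases before the start of Alas2 (chrX:150547319-150547348, plus strand) and 93 before that of Hbb-bs (chr7:103828003-103828032, minus strand), in RefSeq on GRCm38.p6, 5′ to 3′ along the gene. A match is a description of these letters and not a measured site.
Alas2: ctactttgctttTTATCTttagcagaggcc
Hbb-bs: attccgtagagCCACACCCtggtaagggcc

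Platelet lineage genes moved both ways. Of 22 megakaryocyte genes, 5 rose and 9 fell (median -0.33), beside 26% higher and 25.8% lower among all tested genes. The share that rose was thus near that of all tested genes, and the share that fell was above it. Thbs1, a thrombospondin also made by activated myeloid cells, stood at 5.96 and 6.01 CPM in Setd2 knockout and at 964.3, 951.5 and 975.7 in double mutant libraries, and Plek, a substrate of protein kinase C, rose 8.58-fold. Gp5 and Pf4, a platelet glycoprotein and a platelet chemokine, fell 3.09-fold and 3.15-fold.

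Eosinophil genes rose steeply. Of 12 tested, 11 rose and 0 fell (median 3.35), and the summed level went from 266.9 and 281.8 CPM to between 2182 and 2229. Prg2 (ENSMUSG00000027073, at 84980461 to 84983632 of chromosome 2), which encodes the major basic protein of eosinophil granules, stood at 76.7 and 87.1 CPM in Setd2 knockout and at 1085, 1121 and 1124 in double mutant libraries (3.76 ± 0.0994, adjusted p = 4.28e-14, edgeR). Alox15, a lipoxygenase, rose 127-fold. The ribonuclease genes Ear1, Ear2 and Ear6 rose 59.6-fold, 24.1-fold and 24.6-fold, and being near copies of each other they can share reads. Ptger3, a prostaglandin receptor, averaged 15.6 CPM in both groups. Among mast cell and basophil genes 19 of 25 rose and 6 fell (median 1.43). Hdc, which makes histamine, rose 3.98-fold, Cyp11a1, a steroid enzyme, 8.5-fold and Alox5, which starts leukotriene synthesis, 4.37-fold, while Slc18a2, a transporter that loads histamine into granules, fell 2.50-fold.

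**Figure D3:**
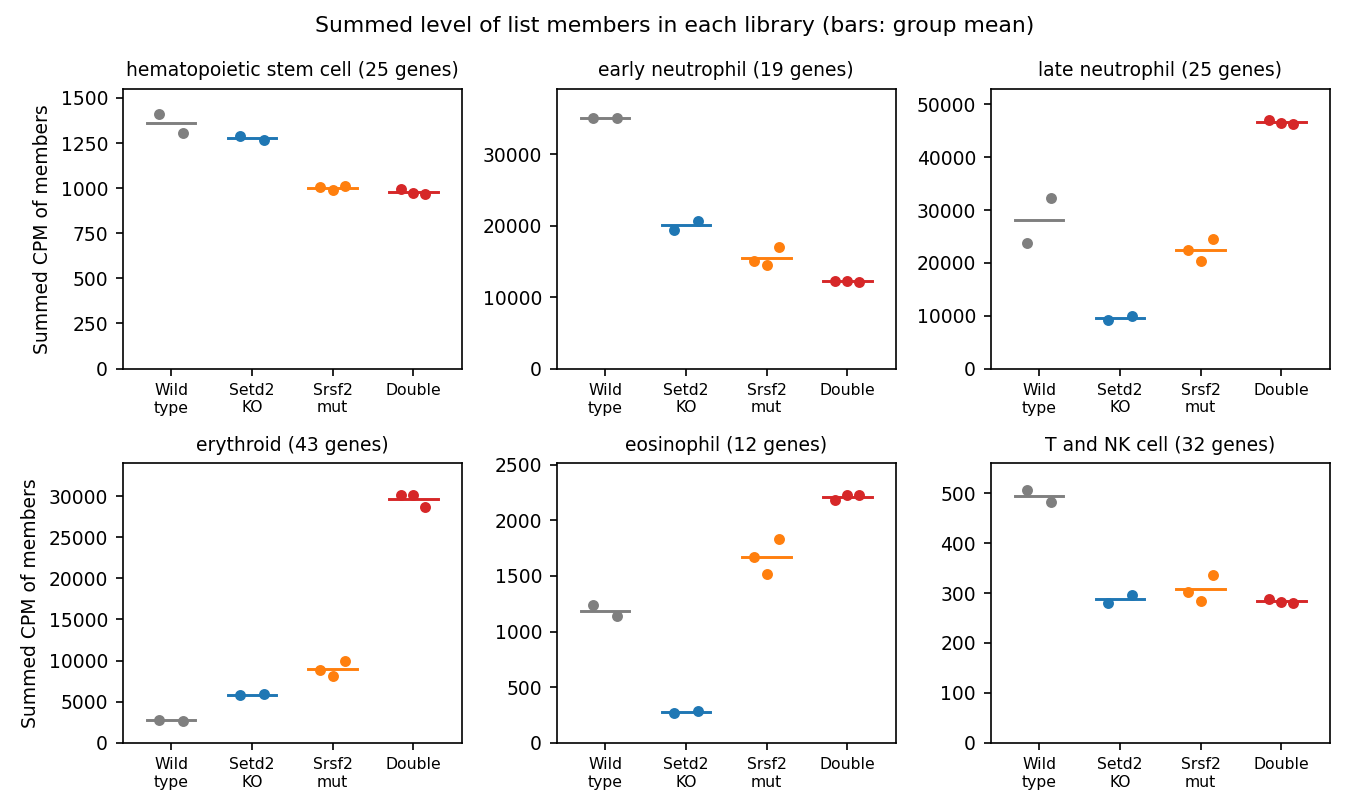
Summed CPM of the members of 6 lists in each library (points) with the group mean (bar), on axes that start at 0. The late neutrophil, erythroid and eosinophil sums are highest in the double mutant libraries, while the T and NK sums lie between 280 and 296 CPM in both Setd2 knockout and double mutant libraries.

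Lymphoid genes were higher too, at very different levels. Of 28 B lymphoid genes, 23 rose and 0 fell (median 1.59), and their sum went from 424.5 and 425.1 CPM to between 1799 and 1845. Jchain, which joins antibody subunits, stood at 63.8 and 63.5 CPM in Setd2 knockout and at 1122, 1092 and 1109 in double mutant libraries. Spib, a transcription factor, rose 5.55-fold, Cd79a, part of the B cell receptor, 5.06-fold and Pou2af1, a coactivator of B cell genes, 5.09-fold. Dntt, which adds bases during receptor recombination, averaged 36.9 and 31.8 CPM (adjusted p = 0.067). Of 32 T and NK cell genes, 28 rose and 2 fell (median 2.59), yet the sum was 279.8 and 296.1 CPM before and 280 to 287.7 after. In Setd2 knockout 22 of the 32 averaged under 1 CPM, and with the filter of at least 5 CPM in 2 libraries 9 were called higher. Il2rb, a receptor chain for interleukins, rose from 1.94 ± 0.527 to 17.6 ± 2.56 CPM and Ccl5, a chemokine, from 0.653 ± 0.146 to 7.76 ± 0.709. The abundant members Nkg7 and Cd27 fell 1.74-fold and 2.37-fold.

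Monocyte and macrophage genes rose in 19 of 29 cases and fell in 4 (median 0.78). Lyz2, lysozyme, stood at 745.3 and 787.3 CPM in Setd2 knockout and at 4405, 4324 and 4467 in double mutant libraries. Cd14, a coreceptor for endotoxin, rose 8.53-fold and Adgre1, an adhesion receptor of macrophages, 5.27-fold. Dendritic cell genes rose in 13 of 20 cases and fell in 2 (median 0.76), with Siglech, a plasmacytoid marker, up from 0.47 to 6.25 CPM and Zbtb46, a factor of classical dendritic cells, down 3.36-fold. Flt3, a growth factor receptor of progenitors, fell 2.11-fold, and 4 members were lower when only the 2 groups were fitted. Of 15 endothelial and stromal genes 8 rose and 3 fell, though the risers were 2 with the stricter filter and 5 without Setd2 knockout replicate 2. Acta2, of smooth muscle, rose from a mean of 0.225 to 5.72 CPM and Pdgfrb, a receptor of perivascular cells, fell 3.06-fold. Their summed level was 113 CPM in Setd2 knockout and 105.6 to 109.5 in double mutant libraries, and 9 of the 15 averaged under 1 CPM in Setd2 knockout, where the collagen gene Col3a1 had 0 counts. The part that other cell types in the bulk samples have in any of these differences was not tested.

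Genes of inflammatory signaling rose widely. Of 44 NF-kB and TNF target genes 40 rose and 1 fell (median 2.74), and their sum went from 1171 and 1172 CPM to between 5126 and 5210. Il1b (ENSMUSG00000027398, chromosome 2, 129364570 to 129371139), interleukin-1 beta, stood at 1.94 and 2.26 CPM in Setd2 knockout and at 213.9, 211.8 and 207.3 in double mutant libraries. It was 100-fold higher (6.65 ± 0.126, adjusted p = 8.85e-16, edgeR). Nlrp3, the sensor of the inflammasome that activates interleukin-1 beta, stood at 6.74 and 6.69 CPM and then at 216.6, 213.2 and 221.1. Feedback genes rose as well, with Zc3h12a, an RNase that degrades cytokine transcripts, 7.68-fold higher. Tnip1, an inhibitor of the pathway, averaged 56.2 and 59.6 CPM and was not called (adjusted p = 0.454), and Vcam1, an adhesion molecule, fell 1.63-fold.

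Ligands, receptors and their inhibitors are given in that order. Of 52 cytokine and chemokine ligand genes 36 rose and 4 fell (median 2.12). Ccl6, a myeloid chemokine, rose 51.4-fold and Cxcl10, an interferon-induced chemokine, stood at 3.2 and 3.3 CPM in Setd2 knockout and at 108.3, 101.9 and 108.6 in double mutant libraries. Cxcl3, a neutrophil attractant, had 3 counts in all in Setd2 knockout and 779 in double mutant libraries, a ratio of 195 with an exact 95% counting interval from 66.4 to 946. Tnfsf10, the death ligand TRAIL, fell 2.40-fold. Of 46 genes of Toll-like receptor, interleukin-1 and inflammasome signaling 25 rose and 7 fell (median 0.37). The share that rose was above the 26% of all tested genes, and the share that fell under the 25.8%. The risers included Il1r2, a decoy receptor, 42.0-fold higher, Il1rn, the receptor antagonist, 29.1-fold, and Tlr2 and Tlr13, sensors of bacterial products, 11.4-fold and 26.3-fold. Il1r1, the signaling receptor, fell 2.17-fold. Of 49 cytokine receptor and SOCS genes 29 rose and 12 fell (median 0.39). There too the share that rose was above that of all tested genes, while the share that fell was near it. The feedback inhibitor Socs3 stood at 5.16 and 6.05 CPM and then at 491.7, 481.8 and 473.4, and Cish and Socs1, inhibitors of the same family, rose 31.0-fold and 16.9-fold. Pim1, a kinase induced by STAT factors, rose 7.04-fold. Ifnar1, a chain of the type I interferon receptor, averaged 78.3 and 78.0 CPM.

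Interferon-stimulated genes rose in 34 of 51 cases and fell in 3, or 5 when only the 2 groups were fitted (median 0.62). Rsad2, the antiviral enzyme viperin, stood at 6.18 and 5.46 CPM in Setd2 knockout and at 281.9, 285.2 and 297.4 in double mutant libraries. Isg15, a ubiquitin-like modifier, stood at 3.18 and 4.21 CPM and then at 99.0, 94.4 and 94.4, and Oas3, a sensor of double-stranded RNA, rose 4.98-fold. Irf7, a factor that amplifies the response, rose 3.51-fold. Ifit2 and Ifi44 fell 1.56-fold and 2.52-fold, and the antigen presentation gene Tap1 averaged 195.9 and 183.6 CPM (adjusted p = 0.267).

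Immediate early genes, which respond within minutes to signals or to handling of cells, rose in 41 of 45 cases and fell in 1 (median 2.07). Egr3 went from 1.30 and 1.33 CPM to 61.9, 60.8 and 64.4, and Fosl2, Maff and Csrnp1, other early transcription factors, rose 13.6-fold, 13-fold and 11-fold. Fos, the best known member, averaged 584.5 and 682.4 CPM and was not called (adjusted p = 0.233). Of 25 heat shock genes 8 rose and 7 fell (median -0.07), near the shares over all tested genes, and those lower were 11 with upper-quartile scaling and 12 with only the 2 groups compared. The inducible chaperones Hspa1b and Hspa1a rose 32.7-fold and 53.3-fold; they are near-identical copies and can share reads. Hspa1b stood at 15.6 and 17.1 CPM and then at 542.5, 524.6 and 539. The abundant chaperones Hsp90ab1 and Hspa8 averaged 2953 and 2735 CPM, and 2950 and 2804 CPM (adjusted p = 0.16 and 0.415). The part of cell handling in these differences was not tested.

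The promoters of 4 of these genes are shown because each rose at least 26-fold and holds the letters of a factor known to act on it. Each stretch is the 160 bases before the RefSeq start on GRCm38.p6, 5′ to 3′ along the gene, with the match in capitals. Cxcl10 (chr5:92348890-92349049, minus strand) holds the NF-kB letters GGGANTTNC 103 bases before its start, found in 3.54% of all 250 base windows. Rsad2 (chr12:26456453-26456612, minus strand) and Isg15 (chr4:156200819-156200978, minus strand) hold the interferon response letters GAAANNGAA, found in 7.13%, and in Isg15 the matches overlap into 1 run. Hspa1b (chr17:34959239-34959398, minus strand) holds the heat shock letters GAANNTTC, found in 6.69%. Both strands were searched, and the NF-kB letters were not in the window of Il1b nor the STAT letters TTCNNNGAA in that of Cish. Socs3, not shown, held the STAT letters 154 bases before its start. The letters TTGCNNAA, searched for C/EBP factors, were in the windows of Mmp8 and Retnlg but not of S100a8, Elane or Mpo.
Cxcl10: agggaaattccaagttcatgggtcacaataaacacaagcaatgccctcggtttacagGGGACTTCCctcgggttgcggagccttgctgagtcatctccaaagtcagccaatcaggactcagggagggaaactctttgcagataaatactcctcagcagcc
Rsad2: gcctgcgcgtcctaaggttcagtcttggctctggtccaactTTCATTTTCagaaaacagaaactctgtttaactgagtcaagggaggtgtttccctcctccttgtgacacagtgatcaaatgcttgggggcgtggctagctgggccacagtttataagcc
Isg15: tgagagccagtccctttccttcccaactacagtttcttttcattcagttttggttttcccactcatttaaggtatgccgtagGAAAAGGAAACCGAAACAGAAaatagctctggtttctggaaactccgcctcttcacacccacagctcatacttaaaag
Hspa1b: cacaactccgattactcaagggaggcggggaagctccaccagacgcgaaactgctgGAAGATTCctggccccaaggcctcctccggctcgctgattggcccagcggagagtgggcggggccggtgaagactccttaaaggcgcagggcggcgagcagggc

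Splicing genes, the machinery that Srsf2 belongs to, were called about as often as all tested genes (26% higher and 25.8% lower). Of 63 SR protein and core splicing genes 18 rose and 19 fell (median -0.02), and the risers were 8 and 10 without Setd2 knockout replicate 1 or 2. Srsf5, an SR protein, stood at 341.2 and 341.3 CPM in Setd2 knockout and at 667.8, 680.4 and 716.3 in double mutant libraries. Sf3b3 and Sf3a1, parts of the U2 complex, fell 1.56-fold and 1.62-fold, Rbm5, a splicing regulator, 1.59-fold and Luc7l, a U1 partner, 1.49-fold. Among 10 kinases of SR proteins and their relatives 5 rose and 3 fell. In this short list the share that rose was above that of all tested genes, and the share that fell near it. Clk1, Clk3 and Clk4 rose 1.75-fold, 1.97-fold and 1.33-fold, and Srpk1 fell 1.66-fold. Of 27 genes known as SRSF2 splicing targets 7 rose and 11 fell, and those lower were 7 without Setd2 knockout replicate 1, double mutant replicate 1 or double mutant replicate 2. In the main fit the share of these targets that rose was near that of all tested genes, and the share that fell was above it. Cd33 and Tyrobp, myeloid surface genes on the target list, rose 22.7-fold and 4.93-fold. Gene counts hold no exon usage, so splicing itself was not measured.

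Chromatin genes fell more often than they rose. Of 57 histone methyltransferase, demethylase and Polycomb genes 10 rose and 26 fell (median -0.21), and the risers were 6 and 5 without Setd2 knockout replicate 1 or 2. In the main fit the share higher lay under the 26% of all tested genes, and the share lower above the 25.8%. Kdm6b, a demethylase induced by inflammation, stood at 48.1 and 49.8 CPM in Setd2 knockout and at 300.8, 281.7 and 268.4 in double mutant libraries. Dnmt1, the maintenance DNA methyltransferase, fell 1.62-fold, Setdb1 and Suv39h1, methyltransferases of histone H3 lysine 9, 1.82-fold and 1.62-fold, and Kdm2b, a Polycomb partner, 1.86-fold. Of 42 myeloid and lymphoid transcription factor genes 17 rose and 19 fell (median -0.14). Both of these shares were above those of all tested genes. Id1 and Id3, inhibitors of helix-loop-helix factors, rose 25.5-fold and 20.9-fold, Irf4 13-fold and Nfil3, a factor of several immune lineages, 11.8-fold.

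DNA replication genes fell in 30 of 49 cases and rose in 2 (median -0.30), the risers being 1 without either Setd2 knockout library and 4 when only the 2 groups were fitted. Cdt1, which licenses origins, stood at 205.3 and 217.5 CPM in Setd2 knockout and at 124.5, 126.6 and 124.2 in double mutant libraries, and Mcm6, part of the helicase, fell 1.48-fold. Pcna rose 1.24-fold and Orc1 1.35-fold, calls that ended without Setd2 knockout replicate 1 (adjusted p = 0.0568, edgeR) and replicate 2 (0.149). Mitosis genes rose in 11 of 40 cases and fell in 9 (median 0.03), near the 26% and 25.8% of all tested genes, with 17 risers under the stricter filter or with only the 2 groups compared and 7 without either Setd2 knockout library. Birc5, the survivin gene, and Ube2c, of the anaphase complex, rose 1.54-fold and 1.59-fold, while the checkpoint kinase Ttk fell 1.67-fold. Replication-dependent histone genes rose in 20 of 52 cases and fell in 0 (median 0.45), though 10 were higher with the stricter filter and 11 without Setd2 knockout replicate 1. Hist1h1c, a linker histone, rose 5.92-fold.

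Genes of p53 and cell death rose in 20 of 37 cases and fell in 7 (median 0.76). Cdkn1a, the cell cycle inhibitor p21, stood at 8.88 and 10.7 CPM in Setd2 knockout and at 85.3, 77.4 and 73.0 in double mutant libraries. Mcl1, a survival gene, rose 3.81-fold, Gadd45a 4.98-fold and Plk3, a stress kinase, 13.5-fold, while Trp53 itself fell 1.73-fold. In the unfolded protein and integrated stress responses 18 of 42 genes rose and 17 fell (median -0.07). Both shares were above the 26% higher and 25.8% lower among all tested genes. Atf3, a stress transcription factor, rose 36-fold, Slc7a11, a cystine transporter, 26.3-fold and Ppp1r15a, which reverses the block of translation, 6.53-fold. Canx, a chaperone of the endoplasmic reticulum, fell 1.65-fold, and Hsp90b1 and Pdia6 were not called (adjusted p = 0.0567 and 0.0879). Of 24 cholesterol synthesis genes 8 rose and 8 fell, with 5 risers without either Setd2 knockout library. Neither cholesterol share was far from the 26% and 25.8% of all tested genes, so the list as a whole did not stand out. Insig1, which restrains the pathway when sterols are plentiful, rose 2.49-fold and Dhcr7, a late enzyme of the pathway, fell 2.06-fold.

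Among ribosomal protein genes 11 of 85 rose and 19 fell (median -0.06), with 26 and 35 when only the 2 groups were fitted. In the main fit both shares lay under the 26% higher and 25.8% lower among all tested genes. The risers were 3 without Setd2 knockout replicate 1 and 7 without double mutant replicate 3. Rpl29 (ENSMUSG00000048758, chromosome 9, 106429454 to 106431568) stood apart, at 10.1 and 14.6 CPM in Setd2 knockout and 267.7, 275.9 and 282.8 in double mutant libraries, with a mean of 649.7 in wild type. It begins 4.1 Mb from the start of Setd2. Oxidative phosphorylation genes rose in 30 of 89 cases and fell in 17 (median 0.10), with 10 higher without Setd2 knockout replicate 1 and 9 lower without replicate 2. In the main fit the oxidative phosphorylation share higher lay above the 26% of all tested genes, and the share lower under the 25.8%. Of 14 mitochondrially encoded genes 3 rose and 1 fell, both shares under those of all tested genes. The ribosomal RNAs mt-Rnr1 and mt-Rnr2 rose 3.19-fold and 3.79-fold. mt-Co1, the gene that fell, lost its call with the stricter filter (adjusted p = 0.0522, edgeR), without Setd2 knockout replicate 1 (0.0694) or without double mutant replicate 3 (0.0519). Nuclear-retained RNAs, a sign of how much nuclear RNA a library holds, rose in 6 of 14 cases, Xist among them, and fell in 1. Their share higher lay above that of all tested genes in the main fit, and their share lower under it. The risers were 2 without Setd2 knockout replicate 1 and 3 without double mutant replicate 1 or 3. Neat1, a scaffold of nuclear bodies, rose 1.52-fold.

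Ranked by fitted fold change, and leaving out sex-linked genes and those that the rule for named genes bars, the first was Apol10c-ps. This pseudogene had 0 counts in Setd2 knockout and stood at 10.4, 12.2 and 11.1 CPM in double mutant libraries, at least 349-fold higher. Its first place depends on the prior count of the fit and is no measured rank. The limit of 349-fold lies under the folds of Apol11b, Apol11a and Slfn14. Next came Apol11b, an apolipoprotein L gene, which stood at 0.194 and 0.529 CPM and then at 367.8, 374.4 and 382.8. Its copy Apol11a rose 815-fold, and copies of this family can share reads. Slfn14, a ribonuclease of red cell and platelet precursors, rose 479-fold, Serpinb2, a protease inhibitor, 348-fold, and Acod1, which makes itaconate in activated macrophages, 329-fold. In the Setd2 knockout libraries Apol11a had 4 and 4 counts, Slfn14 4 and 5, Serpinb2 5 and 3 and Acod1 16 and 14. With so few counts the size of these folds is uncertain. The 10 largest falls by the same rule ran from Prss50, a protease gene, at 11.7 and 12.6 CPM in Setd2 knockout and 0.75, 0.656 and 0.765 in double mutant libraries, to Igip at 5.96-fold. Between them stood, among others, Hnf4a, Trpc6, Vldlr, Senp8, Acot6, Fut10 and Kcnj5. Prss50 lies near Setd2 on chromosome 9, at 110857967 to 110864629, where Setd2 ends at 110618633. The part of this position in the fall of Prss50 was not tested.

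The same Srsf2 question can be asked with Setd2 present, from the 3 Srsf2 mutated and 2 wild type libraries, which share no library with the comparison above. There 56.3% of tested genes were called, 28.5% higher and 27.8% lower. Of the genes higher in the double mutant, 3001 (59.8%) were higher there as well and 591 (11.8%) lower. Of those lower in the double mutant, 3227 (64.7%) were lower there too and 318 (6.38%) higher. The difference between the Srsf2 effects was tested in the same fit, and 31.9% of genes were called, 16.7% with a more positive change in the Setd2 knockout background and 15.2% with a more negative one. With upper-quartile scaling the split was 2438 and 4039, against 3229 and 2931 here. Without Srsf2 mutated replicate 3 the count was 7567, against 6160 with all libraries. On the second principal component that library lay at 75.5, and the other Srsf2 mutated libraries at 36.9 and 42.5. The nuclear RNAs Malat1 and Neat1 took 0.0058% and 0.0085% of counts in wild type and 0.0653% to 0.1167% in all other bulk libraries. The part of nuclear RNA content in the differences between backgrounds was not tested.

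**Figure D4:**
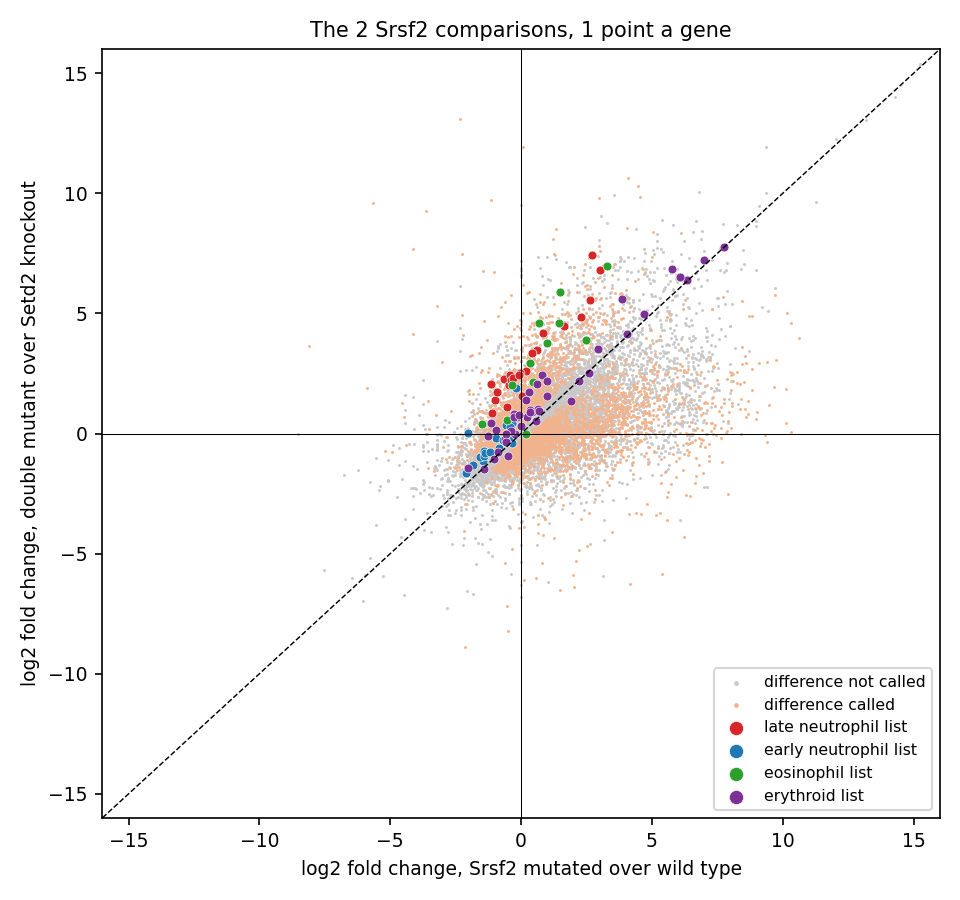
Log2 fold change of double mutant over Setd2 knockout (y axis) against that of Srsf2 mutated over wild type (x axis), 1 point a gene, with genes whose difference was called in pale orange and members of 4 lists in colour. The dashed line marks equal changes, and all 25 late neutrophil members lie above it.

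The Srsf2 change in neutrophil and eosinophil genes differed between the backgrounds. All 25 late neutrophil genes had a more positive Srsf2 change without Setd2, and with Setd2 present 8 rose and 11 fell. The 2 comparisons started from unlike levels. The list's sum was 23750 and 32348 CPM in wild type, but 9230 and 9855 in Setd2 knockout. It was 20264 to 24594 CPM in Srsf2 mutated and 46296 to 47112 in double mutant libraries. Retnlg averaged 22.3 CPM in wild type and 179.3 in Srsf2 mutated libraries, and the 2 changes differed by 3.79 ± 0.151 on the log2 scale (adjusted p = 1.2e-10, edgeR). Of 12 eosinophil genes 11 were more positive and 0 more negative. Their sum too was higher in wild type, at 1235 and 1137 CPM, than in Setd2 knockout, at 266.9 and 281.8. The early neutrophil genes were more positive in 16 of 19 cases as well, and 18 of them were lower in Srsf2 mutated than in wild type libraries. Csf3r, the G-CSF receptor of neutrophils, rose 2.16-fold here and fell by 0.54 on the log2 scale with Setd2 present. Interferon-stimulated genes were more positive in 36 of 51 cases and more negative in 3. Oas3 averaged 30.4 and 21.8 CPM in wild type and Srsf2 mutated libraries, against its rise here.

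B lymphoid, mast cell and splicing genes more often differed the other way, while of 32 T and NK cell genes 11 were more positive without Setd2 and 2 more negative. Of 28 B lymphoid genes 17 had a less positive change without Setd2 and 2 a more positive one, and for mast cell and basophil genes these were 13 and 3 of 25. Blnk, which links the B cell receptor to its kinases, was 3.88-fold higher here and by 3.51 on the log2 scale with Setd2 present (difference -1.56 ± 0.125, adjusted p = 1.32e-07, edgeR). Of 63 SR protein and core splicing genes 22 were more negative and 2 more positive. Clk1 and Clk4 averaged 66.9 and 32.3 CPM in wild type and 174.3 and 89.9 in Setd2 knockout, and their Srsf2 changes differed by -1.34 and -1.27 on the log2 scale. Mitosis genes were more positive in 21 of 40 cases and more negative in 1. The cytokine gene Il6 went from 1.23 and 1.33 CPM to 38.6, 38.3 and 37.6 here, and from a mean of 0.223 to 102.3 with Setd2 present. Among red cell genes no difference was called for some members, with Slc4a1 differing by 0.02 ± 0.201 between backgrounds (adjusted p = 0.947, edgeR) and Alas2 by 0.24 ± 0.13 (0.175), though 26 of 43 erythroid genes were more positive without Setd2 and 2 more negative.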

How the data were processed

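Bulk RNA-seq libraries of mouse bone marrow HSPCs were grouped by their genotype labels. The values are raw counts per gene as the authors deposited them, beside FPKM values, also deposited by the authors, which were used only to check the columns. The submitters' processing notes name the aligners HISAT2 2.0.5 and STAR 2.6.1a, the counters featureCounts 2.0.1 and HTSeq 0.9.1, the tools SAMtools 1.7 and DESeq2 1.22.2, and the mm10 build, and which of them made these counts is not given in the sources used here. Whether the counting used strand is not given in the sources used here, so overlapping and antisense genes cannot be separated, and near-identical copies can share reads. The 5 count columns that stand in 2 tables were identical, and 27 gene symbols stored as dates were restored.

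Counts of 55421 genes were filtered with edgeR's filterByExpr (edgeR 4.0.16, limma 3.58.1, R 4.3.3), which left 19289, and scaled by TMM. The quasi-likelihood fit used all 10 bulk libraries with 1 term per group. It tested double mutant against Setd2 knockout, Srsf2 mutated against wild type, and the difference between both. P-values were adjusted by Benjamini-Hochberg over all tested genes, and standard errors come from the log2 fold change and its F statistic. Where a group had 0 counts, the fold is a lower bound against 3 counts over the group. Alternatives were other scalings and filters, only the 2 groups, DESeq2 1.42.0, a replicate block and leaving out each library. The fit was tested on simulated counts. Figures were drawn with matplotlib 3.10.9, tables made with pandas 2.3.3 and scipy 1.17.1 on Python 3.11.15.

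Genes named are Setd2, Srsf2, Xist and Ddx3y and, per direction, the 10 called genes of largest fold change with a mean of at least 4 CPM in the higher group and no overlap, leaving out sex-linked genes, predicted models and antigen receptor segments. Each list adds up to 5 called members of smallest adjusted p, up to 2 against the majority and up to 2 not called, each with at least 4 CPM, and the difference test adds the 8 largest each way. Cd34 and Procr were named to check the cell type. S100a8, S100a9 and Col3a1 were named after their values were seen. The comparison and the gene lists were chosen with earlier results of these data known. Gene positions come from GENCODE M21 on GRCm38 and promoter sequences from RefSeq on GRCm38.p6, where 213 of the 284 named genes had an entry. The genes shown by sequence were picked with their values known. The single-cell libraries were not analysed here. Some genes that the rule names are not reported here.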

Additional observations from a re-analysis of the deposited data

Results flagged for a closer look

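The Srsf2 change with Setd2 lost and the Srsf2 change with Setd2 present come from libraries that are not shared, and the difference between both was called for 6160 genes (edgeR, Benjamini-Hochberg). Each value here is that difference on the log2 scale, positive where the change was more positive in the Setd2 knockout background. For every gene in this section the difference passed the test.

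Of the genes named for a large positive difference, Scrg1 differed by 6.14, from a mean of 0.0752 to 13.3 CPM without Setd2 and from 0.835 to 2.05 with it. Ces1d, a carboxylesterase, differed by 6.10 and moved in opposite directions, rising from 1.35 to 34.3 CPM here and falling from 18.2 to 6.82 with Setd2 present. Hist1h4m differed by 5.14, at under 5 CPM in every group. Arg2 differed by 4.85, a value that lost its call without WT replicate 1 (2.83, adjusted p = 0.248, edgeR). The stefin genes Stfa1 and Stfa2l1, whose copies can share reads, differed by 4.74 and 4.71, Vnn3, a pantetheinase, by 4.70, and Cd101, a marker of mature neutrophils, by 4.68. Several of these genes had few counts in the Setd2 knockout libraries, so the size of their differences is uncertain. Scrg1 had 5 and 2, Hist1h4m 12 and 1, Arg2 0 and 5, Stfa1 7 and 4, Stfa2l1 2 and 3 and Vnn3 3 and 2.

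The genes named for a large negative difference averaged under 2 CPM in wild type and rose with the Srsf2 mutation there. Mid1, an X-linked gene, differed by -5.13, and averaged 4.30 and 4.24 CPM in Setd2 knockout and double mutant libraries. Sertad4 differed by -4.87, Il6 by -3.93, Cacna2d1 by -3.81 and Bcl6b by -3.70. For Slc2a4, a glucose transporter, the fitted difference of -3.93 is no measured size, because both wild type libraries had 0 counts and the fitted value depends on the prior count. Against the limit of 3 counts over the wild type libraries, its log2 rise with Setd2 present was at least 6.08, beside 5.77 here. That difference lost its call with DESeq2 (adjusted p = 0.0757), without WT replicate 1 (0.166) or 2 (0.171), and without Setd2 knockout replicate 1 (0.0511) or 2 (0.0578). Map9, of the mitotic spindle, differed by -3.49 and Mir5125 by -3.44. Wild type libraries also held a smaller share of the nuclear RNAs Malat1 and Neat1 than all other bulk libraries. The part of nuclear RNA content in these differences was not tested.

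Other genes were called in opposite directions in the 2 comparisons, though the call of Kcnq1ot1 here was lost without either Setd2 knockout library (adjusted p = 0.0509 and 0.0508, edgeR) and under other settings. Setd2 fell here and was higher in Srsf2 mutated than in wild type libraries, a difference of -1.14. Ccr2 differed by -1.51, Slc18a2 by -1.60, the splicing kinase gene Prpf4b by -0.89 and the nuclear RNA Kcnq1ot1 by -2.43, each of them lower here and higher with Setd2 present. Oas3 differed by 2.79, Csf3r by 1.65, Cd9, a tetraspanin of platelets, by 1.65, Ube2c by 1.30, Igsf6 by 0.95 and Birc5 by 0.81, each of them higher here and lower with Setd2 present. Sex-linked state moved with the Srsf2 groups in both comparisons, but not alike. Xist averaged 485.5 CPM in wild type and 1.78 in Srsf2 mutated libraries. It averaged 0.598 CPM in Setd2 knockout and 7.41 in double mutant libraries. Sex-linked state thus also differed between wild type and Setd2 knockout libraries, and its part in these differences was not tested.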

How the results depend on the processing

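The count of called genes stayed within 1.5 times its value under all 12 alternatives, from 7893 with at least 5 CPM in 2 libraries to 11818 with only the 2 groups fitted. Leaving out each library gave 7972 to 9211 calls, 3589 to 4624 of them higher and 4360 to 4587 lower. Of the 284 named genes, 36 crossed the threshold under some alternative, and no fold change of a called gene turned its sign. Calls that were lost besides those in the report were Sertad4 without Setd2 knockout replicate 1 (adjusted p = 0.123, edgeR), Cacna2d1 without Setd2 knockout replicate 1 or 2 or double mutant replicate 2 (0.082, 0.0869 and 0.0905), Snhg15 without Setd2 knockout replicate 1 (0.0602), Snhg8 without Setd2 knockout replicate 1 (0.481) or double mutant replicate 1 or 3 (0.0664 and 0.0512), and Kcnq1ot1 without either Setd2 knockout library (0.0509 and 0.0508) or double mutant replicate 2 (0.0702), or with the replicate block (0.0635). The cause was not tested.

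The count of genes whose Srsf2 change differed between backgrounds ran from 4472 to 7567 when libraries were left out. For Atf3 that difference was 0.68 and not called (adjusted p = 0.224, edgeR), and it reversed to -0.53 without WT replicate 1 (0.0123), within a range from -0.53 to 1.32 over the libraries left out. The difference for Mpo lost its call with upper-quartile scaling (0.169), with at least 5 CPM in 2 libraries (0.0941), without Setd2 knockout replicate 1 (0.186) and without Srsf2 mutated replicate 1 (0.0994), that for Gfi1 without Setd2 knockout replicate 1 (0.0658), and that for Srsf2 without WT replicate 2 (0.092). Of 864 counts over lists 59 moved by more than 1.5 times. Deviations of same-numbered Setd2 knockout and double mutant libraries correlated at -0.041 and -0.019. Over all groups, same-numbered libraries gave values from -0.222 to 0.187. With 2 libraries in a group the deviations are exact opposites, so these values cannot decide whether replicate numbers pair the libraries. Under a replicate block 9756 genes were called, 4877 higher and 4879 lower. With 2 Setd2 knockout libraries the spread rests on the other groups as well, and leaving out 1 of them assumes that the lone library varies like the rest.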
